A study of Mus musculus with 16 samples.

Results

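The genes described here are 9 transcription factor genes of the neuroendocrine (NE) and neural lineage, *Neurod1*, *Insm1*, *Nkx2-1*, *Prox1*, *Isl1*, *Pou3f2*, *Myt1*, *Myt1l* and *St18*, in small cell lung cancer (SCLC) cells of the mouse. They are described through the regions of accessible chromatin around them, called peaks. A peak belonged to one of these genes when the protein-coding transcription start site nearest to the centre of the peak, in the basic GENCODE annotation of mm10, was a start site of that gene. Of 80367 listed peaks, 148 met this rule. The rule used position only and not the direction of a peak.

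Chromatin accessibility was measured by ATAC-seq, in which the Tn5 transposase inserts sequencing adaptors into open DNA, in GFPhigh and GFPneg cells sorted from lung tumors of *TKO*;*Hes1*GFP/+ mice. In both groups *Rb*, *p53* and *p130* were deleted by Cre from an adenovirus given into the airways at 8 to 12 weeks of age, tumors were taken 6 to 7 months later, and 1 allele of *Hes1*, a target gene of Notch, carried the GFP reporter. GFPhigh cells are the Notch-active, non-NE cells and GFPneg cells are the NE cells of the same tumors. The labels give 4 pairs of GFPhigh and GFPneg populations from 3 mice, 2 of these pairs from 1 mouse and described as a technical replicate, as 8 libraries run on 2 lanes each. The adenovirus carried a general promoter, so the deletion was not limited to 1 cell type of the airway, and the tumors of a mouse were pooled before sorting.

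The deposited lists hold the peaks that passed the authors' comparison of the groups. A peak is called opened where it was more accessible in GFPhigh cells and closed where it was less accessible in them. The only level deposited for a peak is the authors' mean over all libraries of the normalized read count, so no value per library, no SD and no n can be given, the depth per library is unknown, and no test between the groups was run here. Shares of peaks carry 95% Wilson intervals, which cover counting error only. Peaks of 1 gene share a locus and are not replicates. In sorted populations, fewer cells with an open site and less opening per cell cannot be told apart.

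These genes encode DNA-binding proteins that set neuronal and NE identity. NEUROD1 is a basic helix-loop-helix factor that binds E-boxes, INSM1 is a zinc finger repressor needed for NE differentiation, and ISL1, POU3F2, PROX1 and NKX2-1 are homeodomain proteins. MYT1, MYT1L and ST18 form a small family of zinc finger factors of neurons and endocrine cells. NKX2-1 differs from the others in that it also marks the lung epithelial lineage, club and alveolar cells included. In the lung, Notch signaling through HES1 is known to oppose the NE fate.

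Peaks next to 8 of the 9 genes were mostly closed in GFPhigh cells, and *Nkx2-1* was the exception. Of the 148 peaks, 136 were closed and 12 opened. The opened share was 8.11% (interval 4.70 to 13.6%), against 50.8% opened and 49.2% closed over all listed peaks. Of the 12 opened peaks, 6 belonged to *Nkx2-1*. The other 8 genes together had 6 opened peaks of 137, or 4.38% (interval 2.02 to 9.23%).

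Sequences of 9 of these peaks are shown because the description turns on them. They come from the GRCm38.p6 assembly (mm10), read 5′ to 3′ on the strand of the gene, and hold only bases outside annotated exons, at most 300 bases per peak. Capitals mark exact matches, on either strand, to 1 of the 12 motifs described with the motif shares. The first 3 are closed peaks over start sites, cut to the bases upstream of the start.
*Neurod1* start, chr2:79456752-79456976, minus strand: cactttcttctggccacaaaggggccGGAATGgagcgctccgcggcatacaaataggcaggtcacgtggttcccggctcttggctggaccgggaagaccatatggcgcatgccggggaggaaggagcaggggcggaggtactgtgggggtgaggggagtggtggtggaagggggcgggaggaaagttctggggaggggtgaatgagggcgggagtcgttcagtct
*Insm1* start, chr2:146221755-146221920, plus strand: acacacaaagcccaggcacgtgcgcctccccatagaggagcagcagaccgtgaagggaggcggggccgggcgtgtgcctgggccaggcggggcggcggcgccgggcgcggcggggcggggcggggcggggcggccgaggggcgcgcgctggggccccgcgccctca
*Pou3f2* start, chr4:22488367-22488642, minus strand: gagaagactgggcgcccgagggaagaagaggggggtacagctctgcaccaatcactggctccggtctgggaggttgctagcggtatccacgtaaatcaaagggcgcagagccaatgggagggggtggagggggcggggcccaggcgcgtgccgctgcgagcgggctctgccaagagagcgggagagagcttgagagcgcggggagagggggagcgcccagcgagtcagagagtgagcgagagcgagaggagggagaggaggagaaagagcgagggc
The next 4 are closed peaks away from the 5′ ends of the genes. Those of *Insm1*, *Isl1* and *Prox1* are the closed peaks with the highest mean normalized count of their gene, and that of *St18* has the next highest of its gene.
*Insm1* distal, chr2:146278546-146278845, plus strand: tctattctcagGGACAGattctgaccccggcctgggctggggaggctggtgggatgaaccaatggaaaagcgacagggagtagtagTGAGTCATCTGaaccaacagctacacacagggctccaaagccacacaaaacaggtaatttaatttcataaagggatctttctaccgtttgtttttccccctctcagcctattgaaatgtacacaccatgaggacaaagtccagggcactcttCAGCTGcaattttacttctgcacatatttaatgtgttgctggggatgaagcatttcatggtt
*Isl1* distal, chr13:115860431-115860730, minus strand: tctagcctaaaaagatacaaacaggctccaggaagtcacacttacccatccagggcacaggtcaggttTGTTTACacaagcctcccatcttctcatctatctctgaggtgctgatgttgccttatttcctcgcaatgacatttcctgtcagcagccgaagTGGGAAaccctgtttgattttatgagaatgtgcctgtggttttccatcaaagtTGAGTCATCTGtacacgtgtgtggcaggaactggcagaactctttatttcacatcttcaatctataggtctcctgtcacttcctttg
*Prox1* intron, chr1:190129590-190129888, minus strand: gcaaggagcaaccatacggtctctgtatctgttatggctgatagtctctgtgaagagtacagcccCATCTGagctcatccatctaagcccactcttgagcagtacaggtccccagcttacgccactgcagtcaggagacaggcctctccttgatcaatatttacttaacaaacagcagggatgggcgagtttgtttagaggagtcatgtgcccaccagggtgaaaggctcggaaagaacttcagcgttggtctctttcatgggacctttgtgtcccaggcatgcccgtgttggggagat
*St18* intron, chr1:6658211-6658510, plus strand: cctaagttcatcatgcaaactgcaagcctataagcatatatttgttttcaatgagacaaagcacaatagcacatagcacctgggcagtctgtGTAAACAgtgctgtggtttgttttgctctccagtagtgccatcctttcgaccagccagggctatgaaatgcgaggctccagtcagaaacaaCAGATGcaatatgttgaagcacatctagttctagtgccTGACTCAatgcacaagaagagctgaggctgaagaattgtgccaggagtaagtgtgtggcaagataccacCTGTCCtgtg
The last 2 are the opened peaks with the highest mean normalized count of *Nkx2-1* and *Myt1*.
*Nkx2-1* internal start, chr12:56535107-56535406, minus strand: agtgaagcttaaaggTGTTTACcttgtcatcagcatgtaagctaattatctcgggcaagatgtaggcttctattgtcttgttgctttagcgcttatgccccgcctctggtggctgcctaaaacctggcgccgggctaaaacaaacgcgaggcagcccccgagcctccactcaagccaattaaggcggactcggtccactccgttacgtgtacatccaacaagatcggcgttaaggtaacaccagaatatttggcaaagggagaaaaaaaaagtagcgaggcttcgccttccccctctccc
*Myt1* intron, chr2:181774532-181774831, plus strand: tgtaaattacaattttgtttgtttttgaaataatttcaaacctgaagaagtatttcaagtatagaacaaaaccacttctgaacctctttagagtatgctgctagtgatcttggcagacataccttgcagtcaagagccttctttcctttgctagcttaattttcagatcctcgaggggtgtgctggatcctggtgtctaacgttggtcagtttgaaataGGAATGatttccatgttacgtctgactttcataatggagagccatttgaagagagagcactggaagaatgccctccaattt

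**Figure D1:**
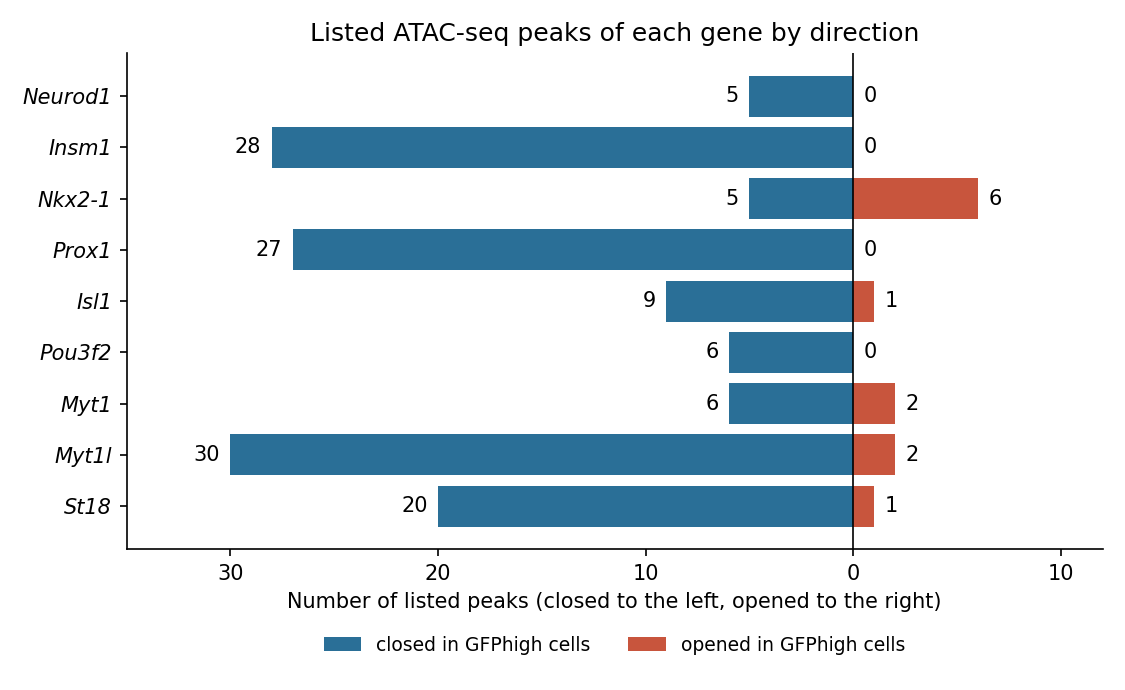
Number of listed peaks of each of the 9 genes, closed in GFPhigh cells to the left (blue) and opened in GFPhigh cells to the right (red). *Nkx2-1*, with 5 closed and 6 opened, is the only gene of the 9 with more opened than closed peaks.

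The basic helix-loop-helix gene *Neurod1* (ENSMUSG00000034701.9, chr2:79452521-79456751, minus strand) had 5 listed peaks, all closed. The peak over its start site, centred 47 bp upstream, had a mean normalized count of 55.3. A peak 2.81 kb downstream of the start, inside the gene, had a mean of 31.4, and a peak 9.39 kb downstream, in an intron of the overlapping gene *Cerkl*, had a mean of 15.7. The other two lay upstream, in intergenic sequence, at 54.5 kb with a mean of 24.5 and at 71.9 kb with a mean of 74.5. The farthest peak thus had the highest level of the 5, and the start site the next.

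*Insm1* (ENSMUSG00000068154.5, chr2:146221921-146225020, plus strand), the gene of the zinc finger repressor, had 28 listed peaks, all closed. The peak over its start site, centred 79 bp downstream, had a mean normalized count of 192.6 and a GC content of 76.4%. A second, narrower peak lay 539 bp upstream with a mean of 37.1. A peak 3.44 kb upstream had a mean of 127.5. The highest level of the gene stood away from it, at the peak 56.8 kb downstream (chr2:146278457-146278935), with a mean of 217.7.

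The distal peaks of *Insm1* lay almost entirely inside a neighbouring gene. Of the 28 peaks, 23 had their centre within the body of *Ralgapa2*, which encodes a subunit of a GTPase-activating protein complex, up to 144.4 kb from the *Insm1* start. The 12 listed peaks whose nearest start was that of *Ralgapa2* itself were 8 opened and 4 closed. Peaks nearer to *Insm1* and peaks nearer to the start of *Ralgapa2* thus differed in their usual direction. The nearest start site does not show which gene a peak acts on.

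*Prox1* (ENSMUSG00000010175.13, chr1:190118035-190170714, minus strand) encodes a homeodomain factor known from lymphatic endothelium and from neural progenitors, and had 27 listed peaks, all closed. Of these, 3 lay within 1 kb of a start site, at 39 bp upstream, 155 bp downstream and 469 bp downstream, with low means of 24.2, 19.0 and 18.2. The highest mean, 86.3, belonged to an intronic peak 39.7 kb downstream of the nearest start. Of the 27 peaks, 15 lay upstream, the farthest at 362.3 kb with a mean of 70.9, and 18 were intergenic. Start-site peaks of *Prox1* were thus below the median of 25.8 over all closed peaks, and the higher levels stood at distal sites.

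The LIM homeodomain gene *Isl1* (ENSMUSG00000042258.13, chr13:116298281-116309689, minus strand) had 9 closed and 1 opened peak. The start-site peak, 78 bp upstream, was closed with a mean normalized count of 39.6. Of the other 8 closed peaks, 7 lay between 291.3 and 551.3 kb downstream of the start, and 1 lay 49.4 kb downstream. Among these was a group of 3 peaks, with gaps under 100 bp between them, at about 449 kb, and its middle peak had a mean of 226.0 while the flanking pieces had means of 16.5 and 12.7. The single opened peak of *Isl1* was 616 bp wide, lay 133.8 kb upstream and had a mean of 61.8. The closed and opened peaks of *Isl1* thus lay on opposite sides of the gene, apart from the start-site peak.

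*Pou3f2* (ENSMUSG00000095139.2, chr4:22482780-22488366, minus strand), a POU homeodomain gene also called Brn2, had 6 listed peaks, all closed. Of these, 4 lay within 1.5 kb of the start site. The peak 103 bp upstream had a mean normalized count of 65.3, the peak 293 bp downstream 46.0, and those at 1138 and 1419 bp upstream 22.0 and 12.4. The other two lay 71.6 kb upstream with a mean of 27.6 and 94.9 kb upstream with a mean of 99.7, the highest of the gene.

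The 3 genes of the MYT family had 56 closed and 5 opened peaks. *St18* (ENSMUSG00000033740.17, chr1:6487231-6860940, plus strand) had 20 closed peaks and 1 opened peak. It held the widest of the 148 peaks, which also had the highest level of them, at 951 bp and a mean normalized count of 372.5. That peak lay 343 bp upstream of a start site inside the gene, 242.5 kb from the 5′ end of the gene. The next highest peak of *St18* was intronic, 71.7 kb upstream of the same start site, with a mean of 276.9. No listed peak lay within 20 kb of the 5′ end of *St18*. The opened peak was intronic, 105.5 kb upstream of the nearest start, with a mean of 13.3, and the farthest closed peak lay 148.8 kb downstream of the nearest start, with a mean of 5.85. The third highest peak of *St18*, with a mean of 110.2, lay outside the gene, 45.8 kb upstream of its 5′ end and within 1 kb of a start of the processed pseudogene *Gm19026*.

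*Myt1l* (ENSMUSG00000061911.15, chr12:29528384-29923213, plus strand) had 30 closed and 2 opened peaks. Of the 32, 21 were within the gene, most of them in its introns. The peaks at its start sites were low, with means of 20.9 at 781 bp upstream of the first start and 7.23 at 942 bp upstream of the next. The highest closed peak, in an intron 27.3 kb upstream of the nearest start, had a mean of 90.6, and the farthest peak, 352.5 kb upstream, had a mean of 14.4. The opened peaks, with means of 22.9 and 5.97, lay 248.1 kb upstream of the nearest start and in an intron 48.2 kb downstream of the nearest start.

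*Myt1* (ENSMUSG00000010505.16, chr2:181763332-181827797, plus strand) had 6 closed and 2 opened peaks, all within 9 kb of a start site. The closed peaks nearest to a start had means of 73.0 and 11.9 and lay 131 and 300 bp upstream of different starts inside the gene. The opened peaks were both intronic, 7.36 kb downstream of the nearest start with a mean of 114.3 and 8.94 kb downstream with a mean of 12.1. A closed peak with a mean of 41.3 lay between them, 8.64 kb downstream. *Myt1* therefore had opened and closed peaks interleaved within 2 kb.

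*Nkx2-1* (ENSMUSG00000001496.15, chr12:56531958-56536908, minus strand), the homeodomain gene of the lung lineage, had 6 opened and 5 closed peaks, so that 54.5% were opened (interval 28.0 to 78.7%), near the 50.8% over all listed peaks. Both peaks at its start sites were opened. The peak 144 bp upstream of the internal start had a mean normalized count of 182.5, the highest of the 12 opened peaks, and the peak 60 bp downstream of the upstream start had a mean of 62.0. The nearest closed peak was in an exon, 1.46 kb downstream of the internal start, with a mean of 50.3. The closed peak with the highest mean, 63.4, lay 21.1 kb downstream, about 1 kb from an opened peak with a mean of 49.7 at 20.02 kb. The farthest peak, 93.8 kb downstream, was closed with a mean of 12.3. Along the locus the direction changed 6 times between neighbouring peaks, against 9 changes at the other 8 genes together.

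**Figure D2:**
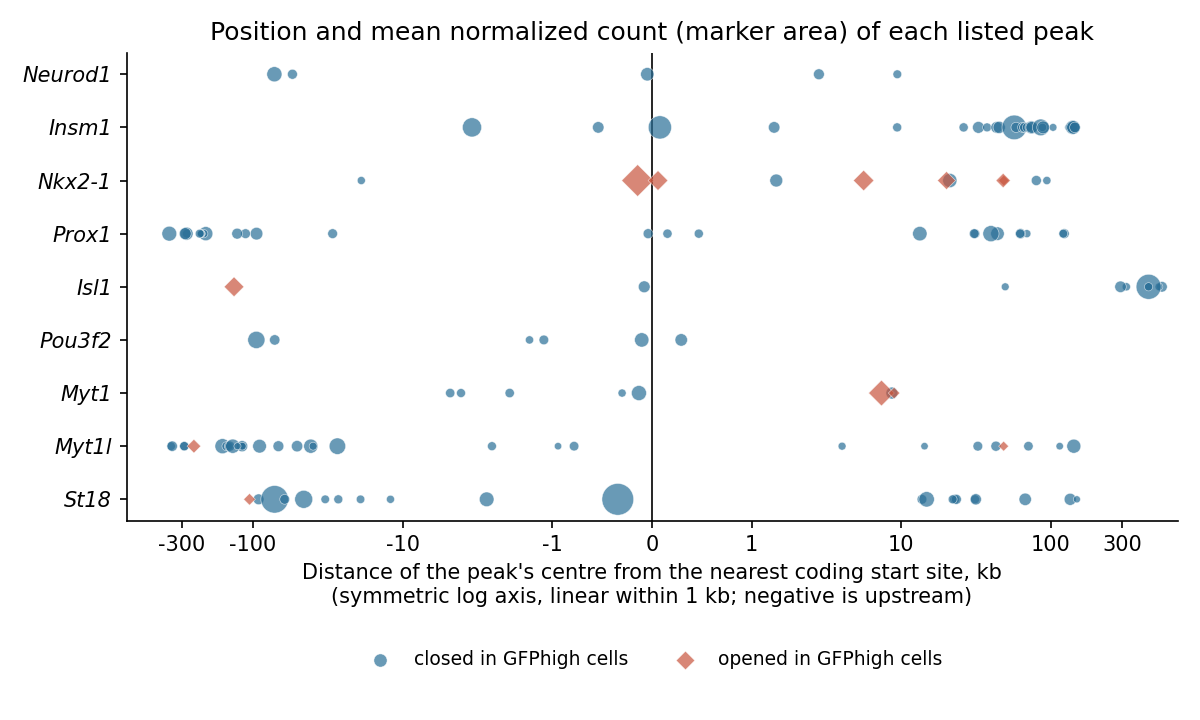
Distance of each of the 148 peaks from the nearest coding start site, in kb on a symmetric log axis, with 1 line per gene. Blue circles are closed and red diamonds opened in GFPhigh cells, and the marker area grows with the authors' mean normalized count. The markers at the start sites are blue for 8 genes and red for *Nkx2-1*.

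Direction at start sites separated *Nkx2-1* from the other genes, as a description over few peaks. Of the 16 peaks centred within 1 kb of a coding start site of the 9 genes, 14 were closed and 2 opened, and both opened ones belonged to *Nkx2-1*. Over all listed peaks within 1 kb of a coding start, 74.3% were opened. The opened share of all listed peaks fell with distance, to 58.8% between 1 and 10 kb, 49.6% between 10 and 100 kb and 32.5% beyond 100 kb. Among the peaks of the 9 genes it was 3 of 18 between 1 and 10 kb, 4 of 66 between 10 and 100 kb and 3 of 48 beyond 100 kb. In each of the 4 distance classes the upper limit of the interval of the 9 genes lay below the share of all listed peaks.

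Peaks of the 9 genes lay farther from start sites than the listed peaks as a whole. The median distance was 59.9 kb, against 27.4 kb over all listed peaks and 42.4 kb over all closed peaks. For single genes the median ranged from 1.3 kb at *Pou3f2* to 383.6 kb at *Isl1*. It was below 27.4 kb at *Pou3f2*, *Myt1*, *Neurod1* and *Nkx2-1*. By the place of the centre, 21 of the 148 were within 1 kb of any annotated start site, 5 in exons, 70 in introns and 52 intergenic. The promoter share was 14.2% (interval 9.47 to 20.7%), against 16.1% of all listed peaks. Among the closed peaks it was 13.2% (interval 8.54 to 19.95%), against 9.68% of all closed peaks.

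The number of peaks of a gene depends on how much genome is nearest to its start sites, and this stretch also limits their distance. Its median over protein-coding genes was 47.4 kb. For the 9 genes the stretch was 4215 kb together and ranged from 63.1 kb for *Myt1* to 1069 kb for *Pou3f2*. Per Mb of it, the 9 genes had 35.1 listed and 32.3 closed peaks, against 29.5 listed and 14.5 closed peaks per Mb over all 21822 protein-coding genes. *Insm1* had 188.4 closed peaks per Mb, and 0.252% of protein-coding genes had a higher density of closed peaks. In fixed windows of 100 kb on both sides of the start sites its closed peaks were 120.0 per Mb, still the highest value of the 9. *Myt1* followed with 95.1, and 2.03% of genes had a higher one, but its stretch was the smallest of the 9. In the fixed windows *Myt1* had 44.1 closed peaks per Mb, fewer than *Insm1*, *Prox1*, *Pou3f2* and *St18*. *Prox1*, *Neurod1*, *St18*, *Myt1l* and *Nkx2-1* lay between 54.5 and 37.1 closed peaks per Mb. *Isl1*, at 9.36, and *Pou3f2*, at 5.61, lay below the average of all genes, in the largest stretches of the 9. For *Pou3f2* the density depended on the stretch. The fixed windows, which count peaks of any gene, held 10 closed peaks of 10 in 200 kb around *Pou3f2* and 2 around *Isl1*. No average over all genes is given for such windows. By number alone, 65 genes had more closed peaks than *Myt1l*, 84 more than *Insm1* and 96 more than *Prox1*.

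**Figure D3:**
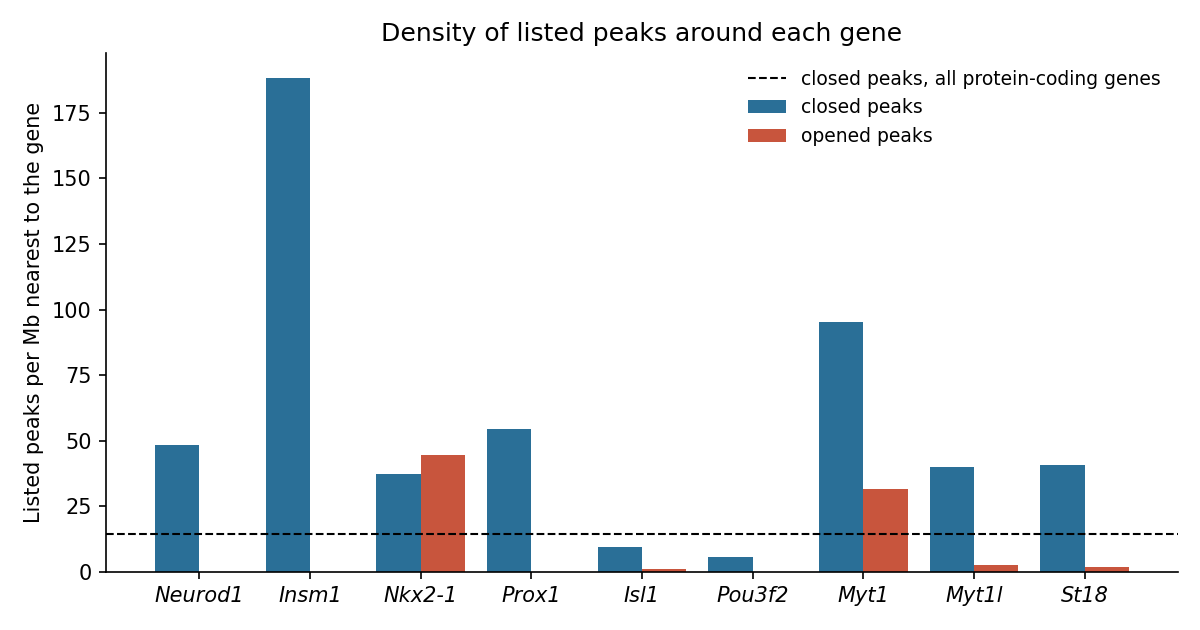
Closed (blue) and opened (red) listed peaks per Mb of the stretch of genome nearest to the start sites of each gene. The dashed line is the density of closed peaks over all protein-coding genes, 14.5 per Mb, and 7 of the 9 genes stand above it.

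A lack of opened peaks was not particular to these genes. Of 652 protein-coding genes with 20 or more listed peaks, 52 had no opened peak, *Insm1* and *Prox1* among them, and 10 had no closed peak. The genes on either side of the 9, chosen by position, had 173 listed peaks, of which 68 or 39.3% were opened (interval 32.3 to 46.7%). Those next to *Isl1* were mostly opened, 6 of 9 at *Itga1* and 11 of 13 at *Parp8*, while *Eipr1* next to *Myt1l* had 22 closed peaks of 22 and *Fbxl4* next to *Pou3f2* 8 of 8.

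Levels of the peaks were modest. The median of the mean normalized count was 24.6 over the 148 peaks, against 31.5 over all listed peaks, and 24.4 over the 136 closed ones, against 25.8 over all closed peaks. By gene the median ran from 19.7 at *Myt1* to 49.7 at *Nkx2-1*. A mean above 100 was found at 9 of the 148 peaks (6.08%), against 17.5% of all listed peaks, which hold more opened peaks. Among closed peaks alone it was found at 7 of 136 (5.15%), against 9.20% of all closed peaks. The 9 were 3 peaks each of *St18* and *Insm1* and 1 each of *Isl1*, *Nkx2-1* and *Myt1*. The mean pools both groups, so it does not give the level in either.

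**Figure D4:**
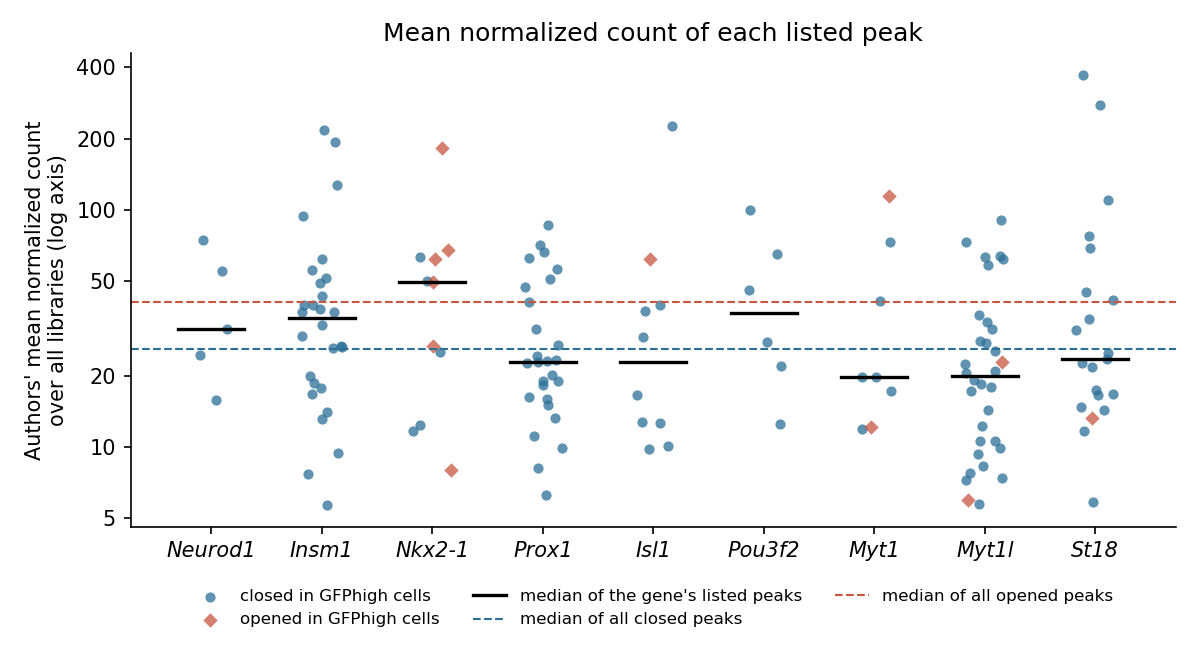
Authors' mean normalized count over all libraries, on a log axis, for each listed peak of the 9 genes, closed (blue circles) or opened (red diamonds) in GFPhigh cells. Black bars are the median per gene, and dashed lines are the medians of all closed (25.8) and all opened (40.7) peaks. The highest value, 372.5, is the closed peak at the internal start of *St18*.

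Some neighbouring peaks may be pieces of one accessible region. The median width was 247.5 bp, against 269 bp over all listed peaks. Over closed peaks alone it was 246 bp, against 248 bp over all closed peaks. Of the 148 peaks, 16 were under 100 bp wide. Between neighbouring peaks of a gene, 20 gaps were at most 500 bp, and 19 of these joined peaks of the same direction. Joining those left 129 regions, of which 11 were opened, or 8.53%. Median GC content was 48.9% over the closed peaks of the 9 genes and also over all closed peaks.

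Motifs were searched as exact strings on both strands in the central 200 bp of each peak, a window that reaches beyond peaks narrower than that. The 12 motifs were CACTTNA for NKX2 factors, the E-boxes CAGATG and CAGCTG of helix-loop-helix factors, TGCAAAT for POU factors, CTAATG for LIM homeodomain factors, AAAGTTT for the MYT family, TGTTTAC for FOX, CATTCC for TEAD, TGANTCA for AP-1, TGGGAA for RBPJ, GGACAG as a half-site of REST, and the REST composite, in which CAGCACC and GGACAG stand 2 bases apart. A match is a description of the letters and not evidence of binding.

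The E-box CAGATG, of the kind bound by NEUROD-type factors, was the motif in which the closed peaks of the 9 genes stood apart from all closed peaks. It was found in 47 of 136, or 34.6% (interval 27.1 to 42.9%), against 22.0% of all closed and 9.88% of all opened peaks. Over all listed peaks, 15.8% held it. By gene it was found in 13 of 28 peaks of *Insm1*, 14 of 32 of *Myt1l*, 8 of 21 of *St18*, 6 of 27 of *Prox1*, 3 of 8 of *Myt1*, 3 of 11 of *Nkx2-1*, 2 of 10 of *Isl1* and none of the 5 of *Neurod1* or the 6 of *Pou3f2*, opened peaks included. With 1 gene left out at a time the share stayed between 31.5%, without *Insm1*, and 37.6%, without *Prox1*, and the lower limit of its interval stayed above 22.0% each time. Leaving out 1 gene does not show the share without both *Insm1* and *Myt1l*, which had the most peaks with the motif. CAGATG was 1 of 12 motifs compared, and no test was made.

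The shares of the other 11 motifs over all closed peaks lay inside the intervals of the closed peaks of the 9 genes. AP-1 was found in 34 of the 136, against 26.4% of all closed and 10.6% of all opened peaks. CAGCTG was found in 22.1%, against 22.6% of all closed peaks, and the NKX2 motif in 19.1%, against 14.9%. The LIM homeodomain motif was found in 12.5%, against 9.15%, and the POU motif in 3.68%, against 4.52%. TEAD was found in 5.15%, against 8.77% of all closed and 18.1% of all opened peaks. Over whole peaks, in place of the central 200 bp, it was found in 12 of the 136 (8.82%). That value has no counterpart here, since the shares of all closed and all opened peaks are for the central 200 bp. The MYT motif was found in 1 of the 136 (0.735%), against 0.918% of all closed peaks. The REST half-site was found in 16.9%, against 18.0%, and the REST composite in 0 of 136, which leaves an upper limit of 2.75%, against 0.0278% of all closed peaks.

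**Figure D5:**
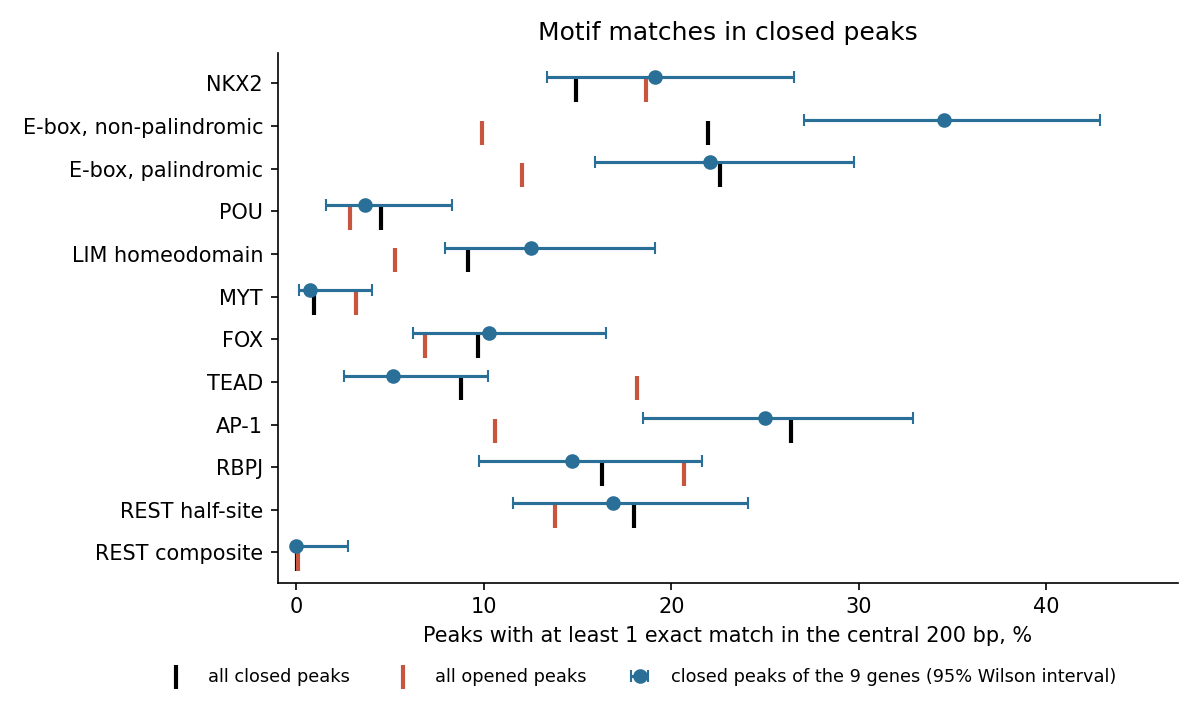
Share of closed peaks with at least 1 exact match to each of 12 motifs in the central 200 bp, for the 136 closed peaks of the 9 genes (blue points with 95% Wilson intervals), all closed peaks (black marks) and all opened peaks (red marks). Only the non-palindromic E-box, at 34.6% against 22.0%, has the mark of all closed peaks outside the interval.

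E-box and AP-1 matches shared bases in 2 of the printed sequences. In the *Insm1* distal peak, TGAGTCA began at base 87 and CATCTG, the E-box on the other strand, at base 92, so that they shared 2 bases. The *Isl1* distal peak held the same pair of letters at bases 214 and 219. In the *St18* intron peak, CAGATG began at base 184 and TGACTCA at base 222, without overlap, and the *Prox1* intron peak held CATCTG and no AP-1 match. Such a pair sharing 2 bases was found in 3 of the 136 closed peaks of the 9 genes (2.21%, interval 0.753 to 6.28%), the other one being a *Prox1* peak 69.0 kb downstream of the nearest start with a mean normalized count of 11.1, against 0.890% of all closed and 0.225% of all opened peaks. The pair was noticed in these sequences, so its count is a description.

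The printed start-site stretches held few of the 12 motifs. The *Neurod1* stretch held 1 TEAD match, and the *Insm1* and *Pou3f2* stretches held none. The whole *Insm1* peak, of which only the part upstream of the start is printed, held CAGATG and a REST half-site. The opened *Nkx2-1* stretch held 1 FOX match at base 16, and the opened *Myt1* stretch 1 TEAD match at base 220. Over the 12 opened peaks, the RBPJ letters were found in 7, TEAD in 3, FOX in 2 and AP-1 in none in the central 200 bp, against 20.7, 18.1, 6.84 and 10.6% of all opened peaks. With 12 peaks the interval of this RBPJ share ran from 32.0 to 80.7%. Over whole peaks the RBPJ letters were found in 6 of the 12, since some matches in the central 200 bp lay outside narrow peaks.

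A wider list of 39 neural and NE transcription factor genes also had more closed than opened peaks, with differences between genes. Of these genes, 36 had a listed peak, 217 peaks in all, with 70 or 32.3% opened (interval 26.4 to 38.7%), below the 50.8% over all listed peaks. By gene, 23 had more closed than opened peaks, 10 more opened than closed and 3 as many of each. The most closed peaks were those of *Lmo4*, a LIM-only gene, with 23, *Lmo1*, of the same family, with 19, and *Ebf1*, a helix-loop-helix gene of B cells and neurons, with 14. *Lmo4* also had the most opened peaks, 23, followed by *Atoh8* with 10, and *Nkx2-2* and *Isl2* with 5 each. Relatives of the 9 genes could differ from them, since all 5 peaks of *Nkx2-2* and 5 of 6 of *Isl2* were opened, while the 4 peaks of *Insm2* and the 9 of *Pou3f3* were closed.

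Marker genes of the sorted cells and of other cell types were read in the same way. Club and non-NE markers (*Hes1*, *Scgb1a1*, *Notch2*, *Cyp2f2*, *Scgb3a2*) had 59 of 79 peaks opened, or 74.7% (interval 64.1 to 83.0%), against 50.8% over all listed peaks. Of these, *Hes1* held 37 of the 79 peaks and 26 of the 59 opened ones. The cells were sorted by the reporter of *Hes1*, so its direction is not independent of the sort. NE markers had 11 of 32 opened, or 34.4%, with an interval of 20.4 to 51.7% that includes 50.8%. Of the 4 NE markers with a listed peak, 3 had more closed than opened peaks: *Ncam1* had 9 closed and 3 opened, and *Calca* and *Chgb* had 4 and 2 closed peaks and none opened. *Chga* had 8 opened and 6 closed peaks, and *Syp* and *Dll3* had no listed peak. Of 7 leukocyte markers, 5 had a listed peak, with 16 of 21 opened (76.2%, interval 54.9 to 89.4%), 11 of them at *Ptprc*. Endothelial markers had 12 of 55 opened (21.8%, interval 12.9 to 34.4%), and 23 of their 43 closed peaks lay at *Cdh5*. Fibroblast markers had 10 of 23 opened (43.5%, interval 25.6 to 63.2%, which includes 50.8%), with all 7 peaks of *Col1a1* opened and all 5 of *Pdgfra* closed. By the paper's methods the cells were stained for CD45, CD31 and TER-119, which mark leukocytes, endothelium and erythroid cells, as lineage markers for selecting such cells out. The part of other cell types in the directions given here was not tested.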

How the data were processed

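ATAC-seq of sorted GFPhigh and GFPneg SCLC cells was analysed from 2 deposited peak lists. Per the paper's methods, the authors trimmed adaptor and transposase sequences, aligned paired reads to mm10 (Bowtie2), dropped duplicate reads (Samtools) and called narrow peaks (MACS2) with reads shifted and extended around the insertion site. A union of the peaks was made over all samples, in which bedtools counted the raw reads of each sample. The submitters' processing notes name Bowtie2 2.3.4.1 and DESeq2 1.28.1. The authors compared the groups with DESeq2 and kept peaks past their limits on the adjusted p and the fold change. Whether lanes and the technical replicate were summed first is not given in the sources used here. The signal the authors deposited for each peak is a mean of normalized counts, taken over all libraries. The 5 further columns per list hold the authors' fold change, its standard error, test statistic, p-value and adjusted p-value, and were not used. Peaks outside the lists were not analysed here, so shares refer to listed peaks only, and small differences are missing from them. Extending and shifting reads around the insertion site sets how narrow a peak can be, and the least width is 73 bp.

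Positions are 1-based. All listed peaks lay on the chromosomes of GRCm38.p6 and none was a duplicate. Genes, start sites and exons came from the basic GENCODE vM21 annotation. A peak was given to the gene with the nearest protein-coding start, and classed by its centre as promoter (within 1 kb of any start site), exon, intron or intergenic. The stretch nearest to a gene runs to the midpoints between its start sites and those of its neighbours. Motifs were exact strings on both strands. Sequences are printed for some of the peaks and are not reported here for the others. Assignment and motif search were tested on simulated data. Tools were Python 3.11.15, pandas 2.3.3, scipy 1.17.1, pysam 0.24.0 and matplotlib 3.10.9.

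The 9 genes, the gene lists, the motifs and the alternatives were chosen with earlier results of these data known. Named peaks are those within 1 kb of a start of the 9 genes, the highest opened and closed peak, the nearest and the farthest peak of each gene, the widest peak, and all peaks of a gene with 5 or fewer. Other peaks were named after their values were seen, as were *Chga*, *Chgb*, *Calca*, *Ncam1*, *Ptprc*, *Cdh5*, *Col1a1*, *Pdgfra*, *Insm2*, *Pou3f3* and the neighbouring genes.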

Additional observations from a re-analysis of the deposited data

How the results depend on the processing

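The opened share of the 9 genes, 8.11%, lay between 7.14 and 11.5% under every alternative assignment, filter, merging and joining and with any gene but *Nkx2-1* left out, and was 4.38% without *Nkx2-1*. *Nkx2-1* was the gene without a closed majority under each alternative assignment and filter, 8 of 9 genes having more closed than opened peaks each time. The number of peaks, 148, depended on the assignment. It was 58 when start sites of non-coding genes competed, 78 within 10 kb of the gene bodies and 89 with a mean normalized count of at least 20. With start sites of non-coding genes included, *Insm1* kept 5 peaks and *Prox1* 5. Listed peaks per Mb, 35.1, became 54.5 in fixed windows of 100 kb around the start sites, where *Insm1* had 120.0, *Myt1* 63.7 in place of 126.8, and *Pou3f2* 10 peaks in 200 kb in place of 5.61 per Mb. Within 100 kb, 100 peaks were left, of which *Isl1* had 2. The share of closed peaks with the REST half-site was 16.9% in the central windows, and whole peaks held it in 34 of 136. For TEAD the shares were 5.15 and 8.82%. Shares over all closed peaks are given for the central windows only. Of 156 further values for single genes and motifs, 126 stayed within their interval or within 1.5 times their count and 30 did not. Joining peaks within 500 bp, leaving out peaks inside another gene (9.57% opened) and leaving out genes from the E-box share were chosen after seeing the data. No paired analysis was possible because the lists hold no value per library, and for the same reason no replicate could be left out. Depth per library is unknown, so the lists cannot show whether a gene lacks listed peaks for want of reads.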
